A study of Homo sapiens with 18 samples.

Results

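The genes described here are 32 human genes of the endoplasmic reticulum (ER), taken by symbol from a list and all found among the 60609 gene rows of the count files. They comprise 11 chaperones and cofactors of the ER lumen and membrane, 5 enzymes of disulfide bond formation, 7 genes of ER-associated degradation, 4 stress sensors or factors that they act through, and 5 genes of the translocon. All 32 passed the filter on low counts and were tested. The cells were OCI-AML1, a line from a human acute myeloid leukaemia that the labels call wild type, with blood as its tissue, and their polyadenylated RNA was sequenced. The 6 groups are AML874 for 8 h, SEL120-34A for 8 h, the solvent DMSO for 8 h, AML874 for 24 h, SEL120-34A for 24 h and DMSO for 24 h, with 3 libraries each. SEL120-34A inhibits the Mediator kinases CDK8 and CDK19. Mediator passes signals of transcription factors to the polymerase that makes messenger RNA. AML874 is known here by its code name, and the labels give no dose of either compound, so the compounds were matched in time and are not known to be matched in dose. The title of the series is about Mediator kinase inhibition and the response to venetoclax. All libraries come from 1 cell line, and nothing states that they come from separate cultures, so each p-value is set against a spread between libraries that may be technical.

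Proteins that enter the ER pass through the translocon and fold there with the help of chaperones such as HSPA5 and of enzymes that make disulfide bonds. Chains that do not fold are drawn back to the cytosol and destroyed, which is ER-associated degradation. When unfolded proteins pile up, the sensors ERN1 (IRE1 alpha), ATF6 and EIF2AK3 (PERK) start the unfolded protein response, in which ATF6 and the spliced form of XBP1 switch on chaperone and degradation genes and PERK slows translation. Calreticulin, encoded by CALR, is also known in blood cancers as a gene mutated in myeloproliferative disease and as a signal on the surface of dying cells.

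Part of this response runs through the ER stress response element, a promoter sequence known to bind NF-Y and ATF6. Its letters were searched as CCAAT, 9 bases of any kind and CCACG, on both strands, in the promoter windows of RefSeq (GRCh38.p14), which run from 250 bases before to 50 bases after each start and are 300 bases long. A window was at hand for 29 of the 32 genes. The element was found in 8 of those 29 genes, or 27.6%, against 25 of all 27305 genes with a window, or 0.0916%. The CCAAT box contained in it was far more common, in 26 of the 29 genes and 39.7% of all genes. A second form, ATTGG, 1 base and CCACG, lay in HYOU1, SDF2L1 and HERPUD1 (3 of 29, 10.3%, against 0.0696% of all genes). A match of letters describes the sequence and is not a measured binding site. The 9 positions in the 8 genes are shown to let them be compared, with the outer letters in capitals, read on the strand that gives CCAAT first.
HSPA5, chr9:125241391-125241409, minus strand: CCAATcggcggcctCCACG
HSP90B1, chr12:103930216-103930234, plus strand: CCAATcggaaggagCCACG
HSP90B1, chr12:103930321-103930339, minus strand: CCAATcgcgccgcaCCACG
CALR, chr19:12938384-12938402, minus strand: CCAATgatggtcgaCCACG
CANX, chr5:179698778-179698796, plus strand: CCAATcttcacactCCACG
PDIA6, chr2:10812853-10812871, minus strand: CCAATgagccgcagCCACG
CRELD2, chr22:49918554-49918572, minus strand: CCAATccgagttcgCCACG
XBP1, chr22:28800603-28800621, minus strand: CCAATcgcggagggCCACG
ERO1B, chr1:236282183-236282201, plus strand: CCAATgaggcgggaCCACG

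The 250 bases before the starts of HSPA5 and CALR are shown, because the elements of both genes carry the same outer letters while AML874 moved the genes in opposite directions at 24 h. Capitals mark the element, which begins 66 bases before the start of HSPA5 on the gene's strand. In CALR it lies on the opposite strand, 225 bases before the start, and therefore reads CGTGG first.
HSPA5 promoter, chr9:125241344-125241593, minus strand: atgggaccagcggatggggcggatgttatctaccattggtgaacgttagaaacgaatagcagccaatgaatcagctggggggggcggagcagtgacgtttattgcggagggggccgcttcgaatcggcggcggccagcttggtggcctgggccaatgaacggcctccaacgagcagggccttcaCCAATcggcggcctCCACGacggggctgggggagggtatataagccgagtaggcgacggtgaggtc
CALR promoter, chr19:12938359-12938608, plus strand: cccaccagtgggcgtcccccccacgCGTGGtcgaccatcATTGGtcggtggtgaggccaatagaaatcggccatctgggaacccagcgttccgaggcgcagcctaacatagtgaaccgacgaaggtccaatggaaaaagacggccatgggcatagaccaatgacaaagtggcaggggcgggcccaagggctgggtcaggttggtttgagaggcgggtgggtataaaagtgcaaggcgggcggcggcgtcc

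The libraries held between 98975944 and 142496541 reads assigned to genes. At this depth a count of 0 allows up to 3 counts, which is 0.0211 to 0.0303 CPM, for counting error only. Of the myeloid markers, CD33 ranged from 52.4 to 100.5 CPM and SPI1 from 166 to 249 CPM, MPO from 4.25 to 37.6 CPM and CD14 stayed at or under 0.119 CPM. Summed over 7 myeloid markers, the level at 8 h was 1023 to 1037 CPM with AML874, 1041 to 1052 CPM with SEL120-34A and 1084 to 1092 CPM with DMSO. At 24 h it was 801 to 811 CPM with AML874, 849 to 876 CPM with SEL120-34A and 958 to 982 CPM with DMSO. The part of these differences in the results was not tested. The plasma cell markers SDC1, JCHAIN and MZB1, genes of a cell type rich in ER, summed to at most 0.523 CPM in any library, and B cell markers to at most 1.81 CPM. The other lists, of T cells, erythroid cells, epithelium and fibroblasts, summed to at most 0.933 CPM each. Along the main axis of variation within groups, which held 35.1% of that variance over 10513 genes, 4 libraries stood highest: AML874 at 24 h replicate 1, SEL120-34A at 8 h replicate 2, SEL120-34A at 24 h replicate 2 and DMSO at 8 h replicate 3. They were the top of a ranking without a clear gap, from 5.35 to 3.11, and the next library was at 2.58. The lowest library was at -3.87. The mean log2 CPM of 20 targets of the hypoxia factor HIF at 8 h was 4.44 to 4.53 with AML874, 4.36 to 5.08 with SEL120-34A and 4.61 to 5.35 with DMSO. At 24 h it was 4.99 to 5.36 with AML874, 5.05 to 5.55 with SEL120-34A and 5.43 to 5.71 with DMSO. The part of this axis in the results was not tested, and counts that it moved by over 1.5 times are given without those 4 libraries.

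Levels are compared between genes in TPM, a unit that takes out gene length and library size. CALR was highest, at 902 to 1375 TPM over the 18 libraries, and P4HB, the classical protein disulfide isomerase, followed at 566 to 723 TPM. Both stood apart from every gene below them in all libraries. PDIA3, HSP90B1, SSR2, XBP1 and CANX had medians between 275 and 335 TPM, and their ranges overlapped from one neighbour to the next. HSPA5, often taken as the marker of the response, ranged from 131 to 196 TPM and lay between PDIA6 and MANF, which overlapped it. All libraries held 12 genes at or above 100 TPM and 5 genes under 10 TPM. Those 5 were EIF2AK3, DERL3, DNAJB9, ERO1B and ERN1, and ERN1 was lowest at 2.7 to 3.57 TPM. Of the 31 neighbouring pairs in this order, 9 were apart in every library.

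**Figure D1:**
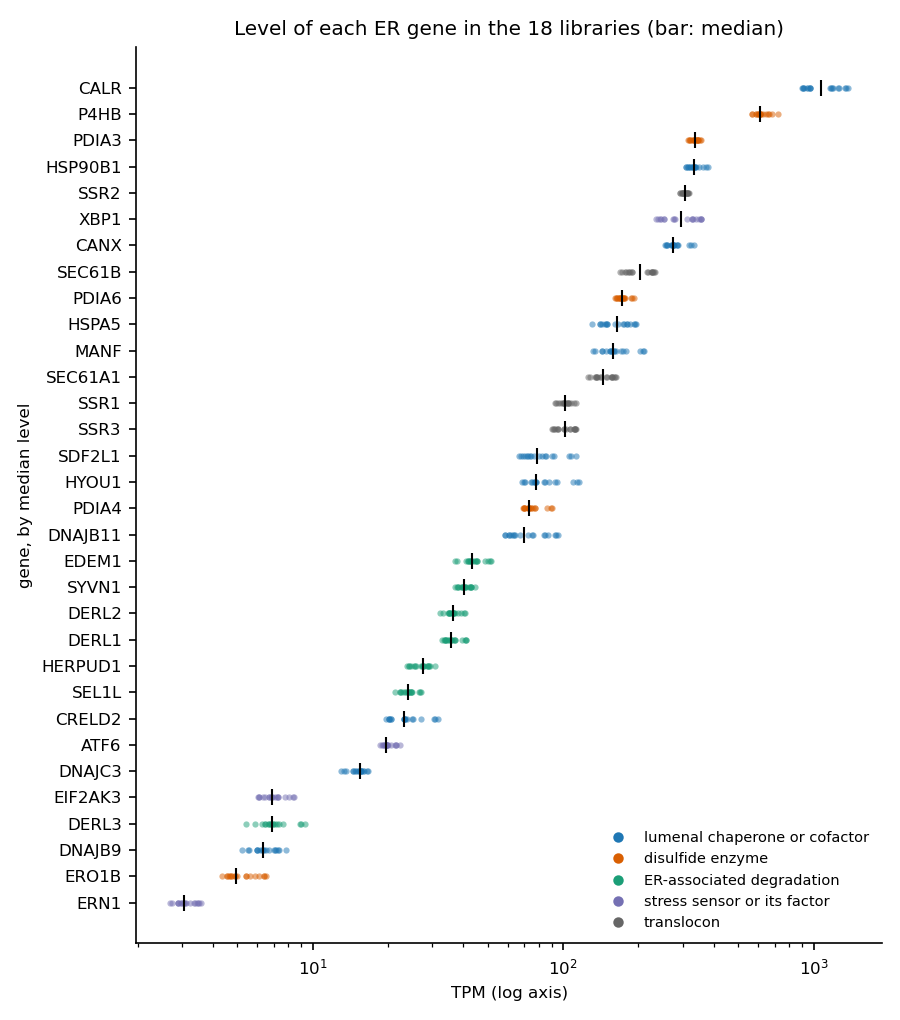
Level of each of the 32 ER genes in TPM on a log axis, by median, with 1 point for each of the 18 libraries, the median as a bar and the role as colour. CALR lies at 902 to 1375 TPM at the top and ERN1 at 2.7 to 3.57 TPM at the bottom.

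Each change is given as a log2 fold change ± its standard error, from 1 edgeR quasi-likelihood model of the 6 groups, and a gene is said to rise or fall at a Benjamini-Hochberg adjusted p under 0.05 over 20920 genes. Levels between groups are in CPM, counts scaled to library size with TMM factors. In such bulk samples, fewer cells with a transcript and less of it per cell cannot be told apart. With AML874 at 8 h, 14 of the 32 genes rose and 4 fell, where 19.7% of all genes rose and 19.9% fell. At 24 h, 9 rose and 9 fell with AML874 (all genes: 23.1% and 23.7%). SEL120-34A at 8 h raised 8 and lowered 10 (all genes: 22.4% and 22.6%). At 24 h it raised 8 and lowered 7 (all genes: 19.1% and 18.6%). The 43.8% of members that rose with AML874 at 8 h lie above this background and the 12.5% that fell lie below it. In the other 3 comparisons the members' shares were nearer to it for rises, at 25.0 to 28.1%, and the falls were 31.3% with SEL120-34A at 8 h. Among the 10513 genes of at least 5 CPM, the range in which the members lie, 23.8% rose and 32.8% fell with AML874 at 8 h and 25.5% and 39.5% at 24 h. With SEL120-34A these shares were 24.3% and 37.1% at 8 h and 23.2% and 29.9% at 24 h. The median change of the members was 0.048 with AML874 at 8 h, -0.015 with AML874 at 24 h, -0.0030 with SEL120-34A at 8 h and 0.029 with SEL120-34A at 24 h. Over all genes tested these medians were 0.0023, 0.0036, -0.0011 and 0.0053. Judged by the libraries alone, 16 members lay wholly above and 5 wholly below DMSO with AML874 at 8 h (all genes: 24.4% and 24.3%) and 11 and 10 at 24 h (all genes: 26.4% and 27.1%). With SEL120-34A 8 lay wholly above and 8 wholly below at 8 h (all genes: 25.8% and 26.1%) and 11 and 6 at 24 h (all genes: 23.1% and 22.7%). No member changed by 1.5-fold against DMSO in any of the 4 comparisons.

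Across the 4 comparisons with DMSO, 6 genes were called in each: HSPA5, HSP90B1, CALR, HYOU1, EDEM1 and EIF2AK3. HYOU1 was higher throughout, EDEM1 and EIF2AK3 were lower throughout, and the other 3 changed direction. SEL1L, DERL2, SEC61A1 and SSR2 were called in none. HSPA5, HSP90B1, CALR, CRELD2, MANF and XBP1 rose in at least 1 comparison and fell in at least 1. The 4 comparisons share the DMSO libraries of their time, so they are not independent of each other. The share of all genes with each of these patterns was not counted, so the patterns only describe the members. Scaling by library totals alone gave 19 higher and 1 lower with AML874 at 8 h, and 17 higher and 6 lower with SEL120-34A at 8 h. Without the 4 libraries that stood highest on the axis, SEL120-34A at 8 h gave 4 higher and 12 lower, and without DMSO at 8 h replicate 3 alone 5 rose. The counts for SEL120-34A at 24 h rest on single libraries. The 8 rises became 3 without SEL120-34A replicate 1, 2 without DMSO replicate 2 and 3 without DMSO replicate 3. The 7 falls became 3 without SEL120-34A replicate 3 and 2 without DMSO replicate 1.

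**Figure D2:**
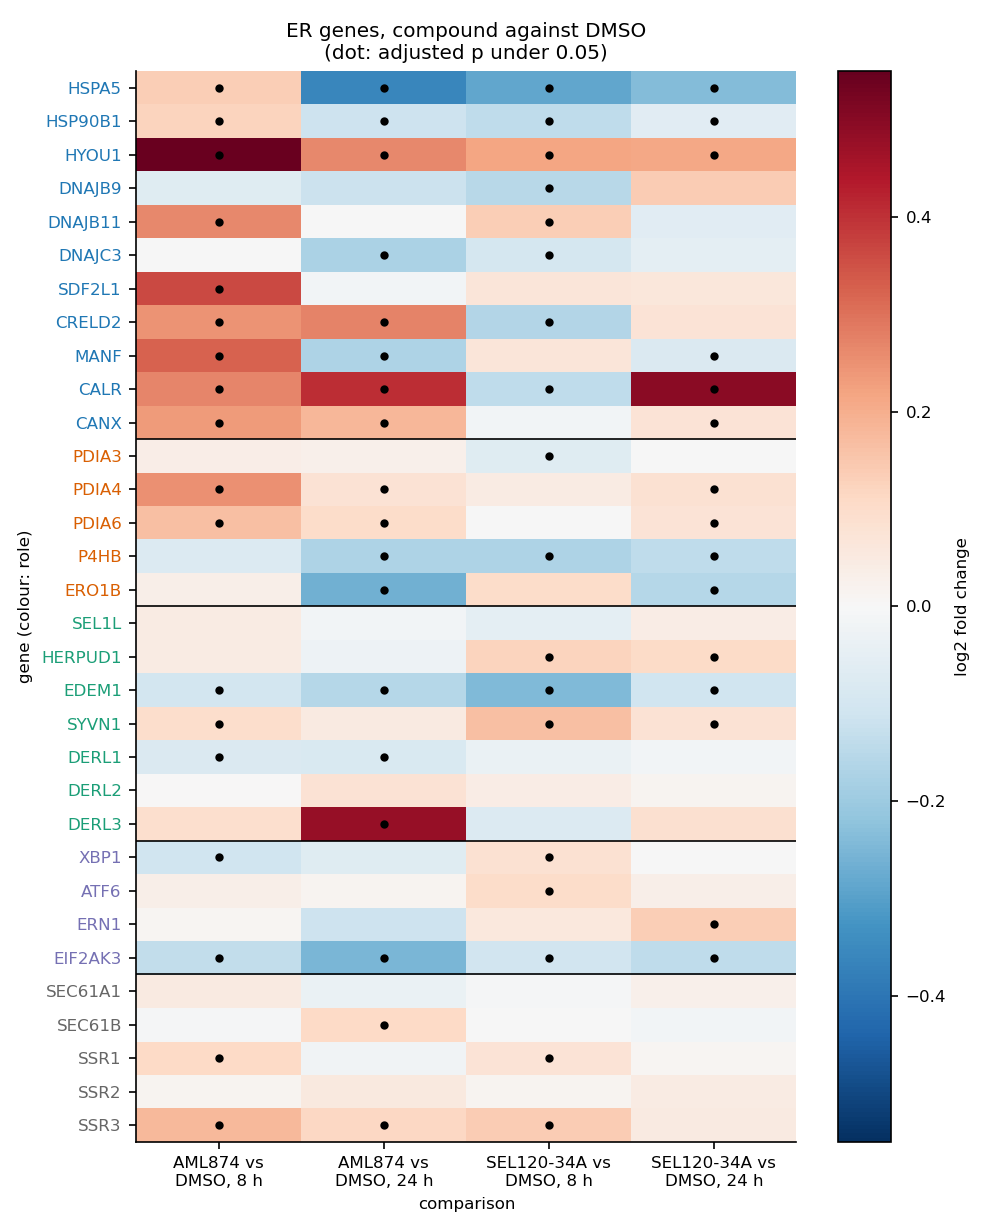
Log2 fold change of each of the 32 ER genes with AML874 or SEL120-34A against DMSO at 8 h and 24 h, from blue (lower) to red (higher), with a dot where the adjusted p was under 0.05 and lines between the roles (from the top: chaperones and cofactors, disulfide enzymes, degradation, sensors, translocon). The chaperone rows are mostly red with AML874 at 8 h, where 9 of 11 rose, and mixed in the other columns.

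Most chaperones and cofactors rose with AML874 at 8 h. With AML874 at 8 h, 9 of 11 rose and none fell, with a median change of 0.25, and the libraries of all 9 lay above every DMSO library. With AML874 at 24 h, 4 rose and 4 fell. SEL120-34A raised 2 and lowered 6 at 8 h, and raised 3 and lowered 3 at 24 h. Of all genes of at least 5 CPM, 23.2 to 25.5% rose and 29.9 to 39.5% fell in these 4 comparisons. Summed over the 11 genes, the level at 8 h was 4342 ± 25.2 CPM with AML874 (SD, n = 3, as for the sums that follow). It was 3457 ± 25.6 CPM with SEL120-34A and 3686 ± 69.2 CPM with DMSO. At 24 h the sum was 3919 ± 74.5 CPM with AML874, 4013 ± 94.6 CPM with SEL120-34A and 3538 ± 40.8 CPM with DMSO. CALR alone had 1628 ± 43.4 CPM with AML874, 1735 ± 40.2 CPM with SEL120-34A and 1229 ± 11.6 CPM with DMSO at 24 h. Without CALR, the other 10 summed at 24 h to 2291 ± 32.5 CPM with AML874 and 2277 ± 56.2 CPM with SEL120-34A, against 2309 ± 31.9 CPM with DMSO. At 8 h those 10 summed to 2814 ± 3.85 CPM with AML874, 2307 ± 13.0 CPM with SEL120-34A and 2417 ± 37.1 CPM with DMSO. The sums of the 10 depended on the unit. In TPM at 8 h they were 1236 ± 4.27 with SEL120-34A and 1207 ± 17.0 with DMSO, the opposite order. In TPM at 24 h they were 1115 ± 20.3 with AML874, 1162 ± 29.6 with SEL120-34A and 1189 ± 10.4 with DMSO. There AML874 lay wholly below DMSO in TPM and overlapped it in CPM.

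HSPA5 (BiP), the HSP70 chaperone of the ER lumen and binding partner of the sensors, carries the element shown above. At 8 h it had 542, 538 and 546 CPM with AML874, 413, 391.8 and 411 CPM with SEL120-34A, and 502, 504 and 473 CPM with DMSO. AML874 lay above and SEL120-34A below every DMSO library. At 24 h it had 377, 394 and 400.0 CPM with AML874, 452, 405 and 418 CPM with SEL120-34A, and 506, 506 and 490.5 CPM with DMSO, and both compounds lay below DMSO. HSPA5 thus rose with AML874 at 8 h (0.14 ± 0.032, adjusted p = 0.00114) and fell at 24 h (-0.36 ± 0.032, adjusted p = 2.82e-10). With SEL120-34A it fell at both times (-0.28 ± 0.032, adjusted p = 2.77e-08 at 8 h, and -0.24 ± 0.032, adjusted p = 8.73e-07 at 24 h). The AML874 effect at 24 h minus that at 8 h was -0.50 ± 0.045, adjusted p = 3.32e-09, while for SEL120-34A the times differed by 0.047 ± 0.045 (adjusted p = 0.506, 95% interval -0.047 to 0.14). HSP90B1 (GRP94), the HSP90 of the ER, took the same directions with smaller sizes. It rose with AML874 at 8 h (0.12 ± 0.022, adjusted p = 3.15e-05) and fell at 24 h (-0.11 ± 0.022, adjusted p = 8.01e-05), and fell with SEL120-34A at 8 h (-0.14 ± 0.022, adjusted p = 3.94e-06) and 24 h (-0.060 ± 0.022, adjusted p = 0.0317). The last of these calls was lost without SEL120-34A replicate 2 or 3 or DMSO replicate 1, or with a filter of 1 CPM or with unstranded counts (adjusted p = 0.0667 to 0.118).

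HYOU1, a large ER chaperone that exchanges nucleotide on HSPA5, was the one chaperone raised in all 4 comparisons. HYOU1 had 327, 335 and 337 CPM with AML874, 271, 256 and 269 CPM with SEL120-34A, and 229, 236 and 220.2 CPM with DMSO at 8 h. Its level at 24 h was 233, 239.8 and 254 CPM with AML874, 246, 229.6 and 226 CPM with SEL120-34A, and 202, 202 and 201 CPM with DMSO. Each compound lay above every DMSO library at both times, and AML874 lay above SEL120-34A at 8 h. The change with AML874 was 0.54 ± 0.031, adjusted p = 4.36e-15 at 8 h, the largest of the 32 genes in that comparison, and 0.26 ± 0.031, adjusted p = 2.18e-08 at 24 h. SEL120-34A raised it by 0.22 ± 0.031 at 8 h and 0.21 ± 0.031 at 24 h. The AML874 effect was smaller at 24 h than at 8 h (-0.28 ± 0.044, adjusted p = 1.31e-05).

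CALR encodes calreticulin, the soluble lectin chaperone of glycoproteins. CALR had 1506, 1530.2 and 1550.2 CPM with AML874, 1166, 1137 and 1148 CPM with SEL120-34A, and 1271, 1300.4 and 1235 CPM with DMSO at 8 h. Its level at 24 h was 1584, 1631 and 1670.5 CPM with AML874, 1781, 1718 and 1706 CPM with SEL120-34A, and 1241, 1218 and 1228 CPM with DMSO. With AML874 it lay above DMSO at both times, whereas with SEL120-34A it lay below DMSO at 8 h and above DMSO at 24 h, without overlap. AML874 raised it by 0.27 ± 0.024 at 8 h and 0.41 ± 0.024 at 24 h (adjusted p = 3.34e-11 and 6.06e-16). SEL120-34A lowered it at 8 h (-0.14 ± 0.024, adjusted p = 9.01e-06) and raised it at 24 h (0.50 ± 0.024, adjusted p = 4.70e-18). The SEL120-34A effect at 24 h minus that at 8 h was 0.64 ± 0.034, adjusted p = 6.07e-16, above 1.5-fold, and that of AML874 was 0.14 ± 0.034, adjusted p = 0.00271. CANX, its membrane-bound relative calnexin, had 994, 1001 and 993 CPM with AML874, against 841, 853 and 851 CPM with DMSO at 8 h and 882, 904 and 895 CPM with AML874, against 803, 782 and 774 CPM with DMSO at 24 h. It rose with AML874 at both times (0.23 ± 0.022 and 0.18 ± 0.022) and with SEL120-34A at 24 h (0.073 ± 0.022, adjusted p = 0.00766). Its change with SEL120-34A at 8 h was -0.015 ± 0.022, adjusted p = 0.629. The call at 24 h was lost without DMSO replicate 2 or 3 (adjusted p = 0.0519 to 0.0553).

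**Figure D3:**
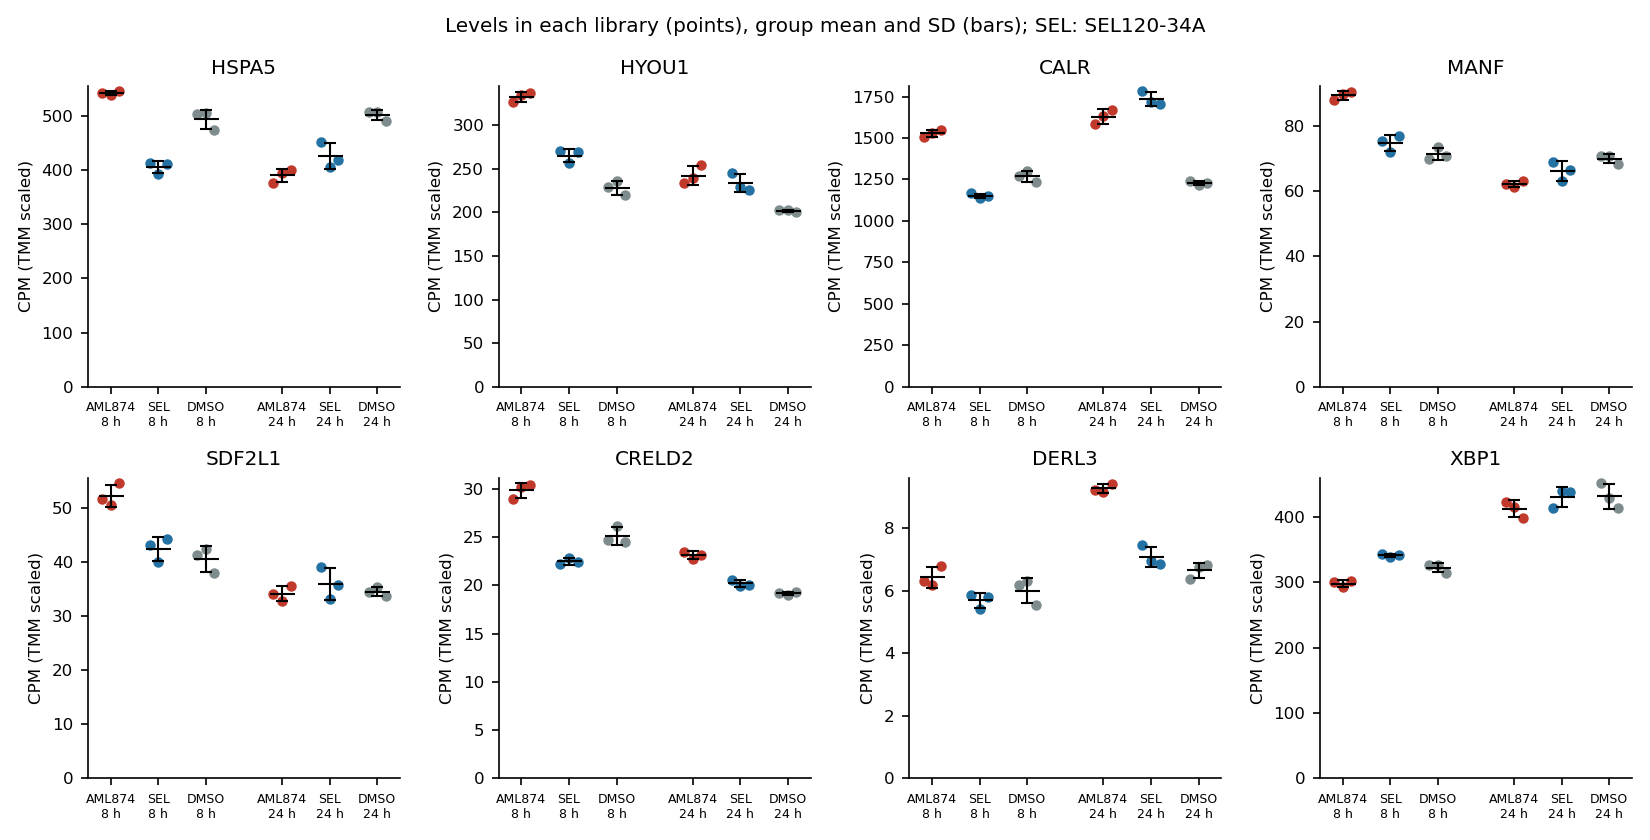
Level of 8 ER genes in CPM in each library (points), with the group mean and SD (bars, n = 3), for AML874, SEL120-34A and DMSO at 8 h and at 24 h. HSPA5 with AML874 lies above DMSO at 8 h and below it at 24 h, and DERL3 stands apart with AML874 at 24 h, at 9.17 to 9.42 CPM.

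MANF, a secreted ER protein that binds HSPA5, and SDF2L1, a partner of ER J-proteins, were both raised with AML874 at 8 h. MANF had 87.9, 89.8 and 90.5 CPM with AML874, 75.4, 72.0 and 76.8 CPM with SEL120-34A, and 69.9, 73.4 and 70.6 CPM with DMSO at 8 h. Its 24 h values were 62.0, 61.4 and 63.2 CPM with AML874, 69.0, 63.0 and 66.3 CPM with SEL120-34A, and 70.8, 70.6 and 68.2 CPM with DMSO. AML874 lay above every DMSO library at 8 h and below every one at 24 h. MANF rose with AML874 at 8 h (0.33 ± 0.031, adjusted p = 1.72e-10) and fell at 24 h (-0.17 ± 0.032, adjusted p = 3.47e-05), and the effects differed by -0.49 ± 0.045, adjusted p = 1.82e-10. With SEL120-34A it was 0.067 ± 0.032, adjusted p = 0.0837 at 8 h and fell at 24 h (-0.080 ± 0.032, adjusted p = 0.0443). That last call was lost in 9 alternatives, among them those without SEL120-34A replicate 2 or 3 or DMSO replicate 1 or 2 (adjusted p = 0.0519 to 0.281). SDF2L1 had 51.7, 50.5 and 54.6 CPM with AML874, against 41.4, 42.5 and 38.0 CPM with DMSO at 8 h, with no overlap, and 34.1, 32.9 and 35.7 CPM with AML874, against 34.5, 35.4 and 33.9 CPM with DMSO at 24 h, with overlap. Its change with AML874 was 0.36 ± 0.052, adjusted p = 7.69e-06 at 8 h and -0.015 ± 0.053, adjusted p = 0.842 at 24 h, and the effects differed (-0.38 ± 0.074, adjusted p = 0.000631). With SEL120-34A it was 0.066 ± 0.052 at 8 h and 0.060 ± 0.053 at 24 h, not called at either time.

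CRELD2, an ER protein with disulfide exchange activity, had 28.97, 30.2 and 30.4 CPM with AML874, 22.2, 22.9 and 22.4 CPM with SEL120-34A, and 24.7, 26.2 and 24.5 CPM with DMSO at 8 h. Its 24 h values were 23.5, 22.7 and 23.2 CPM with AML874, 20.6, 19.97 and 20.1 CPM with SEL120-34A, and 19.2, 19.0 and 19.3 CPM with DMSO. AML874 lay above DMSO at both times and SEL120-34A lay below it at 8 h. CRELD2 rose with AML874 at 8 h (0.25 ± 0.037, adjusted p = 1.09e-06) and 24 h (0.27 ± 0.037, adjusted p = 1.78e-07) and fell with SEL120-34A at 8 h (-0.16 ± 0.037, adjusted p = 0.000515), and its change with SEL120-34A at 24 h was 0.076 ± 0.037, adjusted p = 0.110. DNAJB11, a J-domain cochaperone of HSPA5, had 63.8, 62.5 and 62.4 CPM with AML874, 57.1, 58.0 and 57.3 CPM with SEL120-34A, and 55.0, 52.6 and 49.4 CPM with DMSO at 8 h, and both compounds lay above DMSO. It rose with AML874 (0.27 ± 0.036, adjusted p = 2.26e-07) and SEL120-34A (0.14 ± 0.036, adjusted p = 0.00237) at 8 h, and at 24 h was -0.0015 ± 0.036 for AML874 and -0.061 ± 0.037 for SEL120-34A, not called. The SEL120-34A call at 8 h was lost without DMSO replicate 3, or without the 4 libraries that stood highest on the axis (adjusted p = 0.0793 to 0.0873). DNAJB11 overlaps another gene on the same strand, and reads from the shared stretch cannot be assigned to one of them.

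The other J-domain cochaperones were lower or not called. DNAJC3 (P58IPK), a cochaperone that also restrains PERK, fell with AML874 at 24 h (-0.17 ± 0.030, adjusted p = 1.01e-05) and with SEL120-34A at 8 h (-0.10 ± 0.030, adjusted p = 0.00729), and was -0.00061 ± 0.030, adjusted p = 0.991 with AML874 at 8 h. The SEL120-34A call was lost with library totals alone (adjusted p = 0.406). DNAJB9 (ERdj4), a cochaperone that acts on ERN1, had 11.7, 10.8 and 12.1 CPM with AML874, 10.3, 12.2 and 10.0 CPM with SEL120-34A, and 11.9, 12.2 and 12.2 CPM with DMSO at 8 h and 9.14, 9.53 and 8.80 CPM with AML874, 11.0, 11.1 and 10.8 CPM with SEL120-34A, and 9.68, 10.4 and 9.77 CPM with DMSO at 24 h. SEL120-34A overlapped DMSO at 8 h and lay above it at 24 h. Its fall with SEL120-34A at 8 h was -0.15 ± 0.060, adjusted p = 0.0346, and the other changes were not called (-0.067 ± 0.059 and -0.12 ± 0.060 with AML874, 0.14 ± 0.059 with SEL120-34A at 24 h). The fall was lost without SEL120-34A replicate 1 or 3 or DMSO replicate 2 or 3, or with library totals alone or with only the groups compared (adjusted p = 0.0558 to 0.253). The SEL120-34A effect at 24 h minus that at 8 h was 0.29 ± 0.084, adjusted p = 0.00842.

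Of the 5 disulfide enzymes, AML874 raised 2 at 8 h and lowered none, and raised 2 and lowered 2 at 24 h. SEL120-34A lowered 2 at 8 h, and raised 2 and lowered 2 at 24 h. Shares of all genes of at least 5 CPM were 23.2 to 25.5% for rises and 29.9 to 39.5% for falls in these comparisons. Each count of 2 is 40% of the 5 enzymes, and no difference from those shares was tested. PDIA4 and PDIA6, protein disulfide isomerases that work beside HSPA5, were the ones that rose. PDIA4 had 178, 175 and 176 CPM with AML874, against 149, 151 and 143 CPM with DMSO at 8 h, and 144, 147 and 149 CPM with AML874, against 142, 138 and 137 CPM with DMSO at 24 h, without overlap at either time. It rose by 0.25 ± 0.026 with AML874 at 8 h and 0.079 ± 0.026 at 24 h (adjusted p = 5.77e-10 and 0.0108), and by 0.086 ± 0.026 with SEL120-34A at 24 h (adjusted p = 0.00792). PDIA6 rose by 0.17 ± 0.024 with AML874 at 8 h, 0.10 ± 0.024 at 24 h and 0.075 ± 0.024 with SEL120-34A at 24 h (adjusted p = 7.89e-07, 0.000896 and 0.0132). The PDIA4 call with AML874 at 24 h was lost without AML874 replicate 3 or DMSO replicate 2 (adjusted p = 0.0550 to 0.0563). With SEL120-34A at 24 h calls were lost for PDIA4 without SEL120-34A replicate 1 or DMSO replicate 2 (adjusted p = 0.0592 to 0.0815), and PDIA6 without SEL120-34A replicate 1 or DMSO replicate 2 or 3 (adjusted p = 0.0609 to 0.100).

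P4HB was lower. At 8 h it had 896, 872 and 903 CPM with AML874, 837, 861 and 804 CPM with SEL120-34A, and 943, 917 and 954 CPM with DMSO. P4HB at 24 h had 925, 881 and 854 CPM with AML874, 895, 939.6 and 880.3 CPM with SEL120-34A, and 1064, 956 and 971 CPM with DMSO. Both compounds lay below every DMSO library at both times. P4HB fell with AML874 at 24 h (-0.17 ± 0.037, adjusted p = 0.000659) and with SEL120-34A at 8 h (-0.17 ± 0.037, adjusted p = 0.000733) and 24 h (-0.14 ± 0.037, adjusted p = 0.00473), and was -0.075 ± 0.037, adjusted p = 0.118 with AML874 at 8 h. ERO1B, an oxidase that recharges the isomerases, had 19.9, 19.8 and 17.8 CPM with AML874, 19.5, 21.3 and 21.1 CPM with SEL120-34A, and 23.7, 22.9 and 22.2 CPM with DMSO at 24 h. Both compounds lay below DMSO. ERO1B fell at 24 h with AML874 (-0.26 ± 0.050, adjusted p = 4.89e-05) and SEL120-34A (-0.16 ± 0.050, adjusted p = 0.0133), and at 8 h was 0.030 ± 0.052 for AML874 and 0.10 ± 0.052 for SEL120-34A, not called. PDIA3, the isomerase that works with CALR and CANX, fell with SEL120-34A at 8 h (-0.067 ± 0.023, adjusted p = 0.0177) and was not called in the other comparisons with DMSO (0.035 ± 0.023 and 0.030 ± 0.023 with AML874, -0.00040 ± 0.023 with SEL120-34A at 24 h). Calls with SEL120-34A were lost for ERO1B without SEL120-34A replicate 1 or DMSO replicate 1 (adjusted p = 0.0639 to 0.0997), and PDIA3 with library totals alone or with unstranded counts (adjusted p = 0.0688 to 0.966). PDIA3 has named pseudogenes, so its counts are uncertain where reads match both.

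The 7 genes of ER-associated degradation did not move together. AML874 raised 1 and lowered 2 at each time, and SEL120-34A raised 2 and lowered 1 at each time. These counts are 14.3% or 28.6% of the 7 genes. Of all genes of at least 5 CPM, 23.2 to 25.5% rose and 29.9 to 39.5% fell in the 4 comparisons. DERL3, a derlin of the channel through which chains leave the ER, had 9.22, 9.17 and 9.42 CPM with AML874, 7.45, 6.95 and 6.85 CPM with SEL120-34A, and 6.39, 6.75 and 6.83 CPM with DMSO at 24 h. AML874 lay above every other library, while SEL120-34A lay just above DMSO. DERL3 at 8 h had 6.31, 6.17 and 6.79 CPM with AML874, 5.87, 5.43 and 5.79 CPM with SEL120-34A, and 6.17, 6.31 and 5.54 CPM with DMSO, and the groups of each compound overlapped DMSO. DERL3 rose with AML874 at 24 h (0.48 ± 0.061, adjusted p = 5.03e-08) and was 0.094 ± 0.065, adjusted p = 0.265 at 8 h, and the effects differed by 0.38 ± 0.089, adjusted p = 0.00135. With SEL120-34A at 24 h its change was 0.090 ± 0.063, adjusted p = 0.278. DERL1 fell slightly with AML874 at 8 h (-0.080 ± 0.028, adjusted p = 0.0193) and 24 h (-0.084 ± 0.028, adjusted p = 0.0118), and DERL2 was not called (0.0020 ± 0.034 and 0.078 ± 0.034). DERL2 depended on the unit at 8 h. In TPM it had 36.5, 36.9 and 38.2 with AML874, and 33.2, 36.3 and 34.7 with SEL120-34A. Both lay below every DMSO library (40.0, 40.8 and 39.25 TPM). The DERL1 call at 8 h was lost without AML874 replicate 2, or with library totals alone or with unstranded counts (adjusted p = 0.0549 to 0.339). Its call at 24 h was lost without AML874 replicate 1 or DMSO replicate 1, or with a filter of 1 CPM or with unstranded counts (adjusted p = 0.0543 to 0.0717).

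EDEM1, which takes misfolded glycoproteins to degradation and is a textbook target of XBP1, fell in all 4 comparisons. At 8 h it had 186, 182 and 184 CPM with AML874, 165, 176 and 162 CPM with SEL120-34A, and 196, 190.3 and 208 CPM with DMSO. EDEM1 at 24 h had 198, 197 and 190.3 CPM with AML874, 197, 211 and 197 CPM with SEL120-34A, and 225, 211 and 216 CPM with DMSO. SEL120-34A lay below DMSO at 8 h and overlapped it at 24 h, where 1 library was at 211 CPM, and AML874 lay below DMSO at both times. The falls were -0.10 ± 0.033, adjusted p = 0.0147 at 8 h and -0.16 ± 0.033, adjusted p = 0.000292 at 24 h with AML874. With SEL120-34A they were -0.24 ± 0.034, adjusted p = 7.35e-07 at 8 h and -0.11 ± 0.033, adjusted p = 0.00989 at 24 h. The AML874 call at 8 h was lost without DMSO replicate 3, or with library totals alone (adjusted p = 0.0536 to 0.200). The SEL120-34A call at 24 h was lost without SEL120-34A replicate 1 or 3 or DMSO replicate 1 (adjusted p = 0.0524 to 0.0675).

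SYVN1 (HRD1) is the ubiquitin ligase of this route, HERPUD1 helps to assemble its complex and SEL1L is its partner. SYVN1 rose with SEL120-34A at 8 h (0.16 ± 0.030, adjusted p = 3.06e-05) and 24 h (0.079 ± 0.030, adjusted p = 0.0358) and, as well, with AML874 (0.10 ± 0.030, adjusted p = 0.00925 at 8 h). The AML874 call was lost without AML874 replicate 2 or 3 or DMSO replicate 1 or 3 (adjusted p = 0.0661 to 0.105). With SEL120-34A at 24 h the call was lost in 12 alternatives, among them those without SEL120-34A replicate 1 or 2 or DMSO replicate 1 or 2 or 3 (adjusted p = 0.0538 to 0.258). SYVN1 overlaps FAU on the same strand, which can affect its counts. HERPUD1 had 29.8, 29.8 and 30.3 CPM with SEL120-34A, against 27.5, 28.3 and 26.9 CPM with DMSO at 8 h and 33.0, 32.4 and 32.2 CPM with SEL120-34A, against 30.9, 30.2 and 29.7 CPM with DMSO at 24 h, without overlap. It rose with SEL120-34A at both times (0.12 ± 0.035, adjusted p = 0.00494, and 0.10 ± 0.034, adjusted p = 0.0157) and was 0.045 ± 0.035 at 8 h and -0.029 ± 0.035 at 24 h with AML874, not called. The HERPUD1 call at 8 h was lost without DMSO replicate 3, or without the 4 libraries that stood highest on the axis (adjusted p = 0.0660 to 0.0795). Its call at 24 h was lost without SEL120-34A replicate 1 or DMSO replicate 2 or 3 (adjusted p = 0.0657 to 0.0864). SEL1L stayed between -0.053 and 0.043 in the 4 comparisons.

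Among the sensors, EIF2AK3, the kinase PERK, fell in all 4 comparisons. EIF2AK3 had 20.5, 19.6 and 20.2 CPM with AML874, 19.7, 21.8 and 19.96 CPM with SEL120-34A, and 22.3, 21.6 and 22.3 CPM with DMSO at 8 h. Its level at 24 h was 21.8, 21.3 and 20.8 CPM with AML874, 22.4, 24.3 and 22.3 CPM with SEL120-34A, and 26.6, 24.4 and 25.0 CPM with DMSO. AML874 lay below DMSO at both times, and SEL120-34A overlapped DMSO at 8 h and lay below it at 24 h. The change with AML874 was -0.14 ± 0.044, adjusted p = 0.0129 at 8 h and -0.25 ± 0.043, adjusted p = 9.01e-06 at 24 h. With SEL120-34A it was -0.11 ± 0.044, adjusted p = 0.0487 at 8 h and -0.14 ± 0.043, adjusted p = 0.00927 at 24 h. With AML874 at 8 h the call was lost with library totals alone or with unstranded counts (adjusted p = 0.104 to 0.135). With SEL120-34A at 8 h it was lost in 11 alternatives, among them those without SEL120-34A replicate 1 or 3 or DMSO replicate 1 or 3 (adjusted p = 0.0547 to 0.489). With SEL120-34A at 24 h it was lost without SEL120-34A replicate 3 or DMSO replicate 1 (adjusted p = 0.0626 to 0.0798).

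XBP1 is the transcription factor whose RNA is spliced by ERN1, and the gene counts hold both of its forms. It had 300.2, 292 and 301 CPM with AML874, 343, 339 and 342 CPM with SEL120-34A, and 326, 326 and 314 CPM with DMSO at 8 h. AML874 lay below and SEL120-34A above every DMSO library. XBP1 fell with AML874 (-0.11 ± 0.029, adjusted p = 0.00220) and rose with SEL120-34A (0.083 ± 0.029, adjusted p = 0.0181) at 8 h, and was -0.064 ± 0.029, adjusted p = 0.0657 with AML874 and -0.0034 ± 0.029, adjusted p = 0.944 with SEL120-34A at 24 h. ATF6, the sensor that is cut in the Golgi to give a transcription factor, rose with SEL120-34A at 8 h (0.10 ± 0.027, adjusted p = 0.00180) and was between 0.014 and 0.034 elsewhere, not called. ERN1, the kinase and RNase IRE1 alpha, had 11.2, 11.6 and 11.8 CPM with AML874, 13.5, 14.5 and 13.1 CPM with SEL120-34A, and 13.5, 11.7 and 12.2 CPM with DMSO at 24 h. SEL120-34A overlapped DMSO in 1 DMSO library of 13.5 CPM. ERN1 rose with SEL120-34A (0.13 ± 0.054, adjusted p = 0.0477) and was -0.12 ± 0.054, adjusted p = 0.0801 with AML874 at 24 h. The rise of XBP1 was lost without SEL120-34A replicate 1 or 2 or 3 or DMSO replicate 1 or 3, or without the 4 libraries that stood highest on the axis (adjusted p = 0.0510 to 0.189). The rise of ERN1 was lost in 12 alternatives, among them those without SEL120-34A replicate 1 or 2 or DMSO replicate 2 or 3 (adjusted p = 0.0508 to 0.316). XBP1 has a named pseudogene, so its counts are uncertain where reads match both.

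Changes of the translocon genes against DMSO were small. Of all genes of at least 5 CPM, 23.2 to 25.5% rose and 29.9 to 39.5% fell in the 4 comparisons. AML874 raised 2 of 5 at each time, SEL120-34A raised 2 at 8 h and none at 24 h, and none fell. SSR3 and SSR1, subunits of the translocon-associated protein complex, were the ones raised at 8 h. SSR3 had 241, 240.4 and 242 CPM with AML874, 236, 232 and 236 CPM with SEL120-34A, and 213, 215 and 211 CPM with DMSO at 8 h, and both compounds lay above every DMSO library. It rose with AML874 at 8 h (0.18 ± 0.024, adjusted p = 1.91e-07) and 24 h (0.11 ± 0.024, adjusted p = 0.000214) and with SEL120-34A at 8 h (0.14 ± 0.024, adjusted p = 1.10e-05). SSR1 rose at 8 h by 0.11 ± 0.023 for AML874 and 0.075 ± 0.023 for SEL120-34A (adjusted p = 0.000288 and 0.00848). In TPM the mean of SSR1 at 8 h was 101.9 with SEL120-34A and 105.0 with DMSO, the opposite order, and the libraries overlapped. SEC61B, the small subunit of the channel, rose with AML874 at 24 h (0.11 ± 0.028, adjusted p = 0.00168). SEC61A1, which forms the pore, and SSR2 stayed between -0.038 and 0.053 in the 4 comparisons. The rise of SSR1 with SEL120-34A was lost without SEL120-34A replicate 2 or DMSO replicate 1 or 2, or without the 4 libraries that stood highest on the axis (adjusted p = 0.0587 to 0.129). SSR1 overlaps CAGE1 and processed pseudogenes on its strand and has named pseudogenes elsewhere, so its counts are uncertain too.

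The compounds were also compared directly with each other at each time. At 8 h, 16 of the 32 genes were higher with AML874 than with SEL120-34A and 2 were lower (all genes: 16.0% and 15.2%, genes of at least 5 CPM: 26.1% and 21.2%). The median difference was 0.095, against 0.0012 over all genes tested. At 24 h, 4 were higher and 7 lower (all genes: 8.00% and 11.6%, genes of at least 5 CPM: 10.8% and 20.0%), with a median of -0.039 against -0.0041. The libraries of 19 members lay wholly above and of 3 wholly below those of SEL120-34A at 8 h (all genes: 21.9% and 21.3%), and of 5 and 11 at 24 h (all genes: 15.2% and 17.4%). Of the chaperones and cofactors, 10 of 11 were higher with AML874 at 8 h and none was lower, and at 24 h 2 were higher and 5 lower. Both times were tested for each member, and the p-values were adjusted over all 20920 genes at each time. The 2 lower genes at 8 h became 1 without AML874 replicate 2 or 3, and the 7 at 24 h became 4 without AML874 replicate 1.

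HSPA5 was 0.42 ± 0.032 higher with AML874 than with SEL120-34A at 8 h (adjusted p = 7.41e-11), and its libraries did not overlap. At 24 h it was lower with AML874 (-0.12 ± 0.032, adjusted p = 0.00695). CALR showed the same turn, with 0.41 ± 0.024, adjusted p = 3.82e-15 at 8 h and -0.092 ± 0.024, adjusted p = 0.00581 at 24 h. CRELD2 was higher with AML874 at both times (0.41 ± 0.037, adjusted p = 1.17e-10, and 0.19 ± 0.037, adjusted p = 0.000221), as was CANX (0.25 ± 0.022 and 0.11 ± 0.022). HYOU1, SDF2L1, MANF and HSP90B1 were higher by 0.33 ± 0.031, 0.30 ± 0.052, 0.26 ± 0.031 and 0.26 ± 0.022 at 8 h. At 24 h, HYOU1 differed by 0.052 ± 0.031 (95% interval -0.012 to 0.12), SDF2L1 by -0.076 ± 0.053 (-0.19 to 0.035) and HSP90B1 by -0.052 ± 0.022 (-0.10 to -0.0062), not called, and MANF was lower with AML874 (-0.088 ± 0.032, adjusted p = 0.0465). Calls at 24 h were lost for HSPA5 without AML874 replicate 1 or SEL120-34A replicate 1 (adjusted p = 0.0540 to 0.0859), CALR without AML874 replicate 1 or SEL120-34A replicate 1 (adjusted p = 0.0559 to 0.0614), and MANF in 11 alternatives, among them those without AML874 replicate 1 or 2 or SEL120-34A replicate 1 or 3 (adjusted p = 0.0557 to 0.298).

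XBP1 was lower with AML874 than with SEL120-34A at 8 h (-0.19 ± 0.029, adjusted p = 2.47e-06), and so was ATF6 (-0.068 ± 0.027, adjusted p = 0.0477). The ATF6 call was lost in 7 alternatives, among them those without AML874 replicate 2 or 3 or SEL120-34A replicate 2 (adjusted p = 0.0571 to 0.204). At 24 h, ERN1 (-0.25 ± 0.054, adjusted p = 0.000931), DNAJB9 (-0.26 ± 0.060, adjusted p = 0.00212), HERPUD1 (-0.13 ± 0.035, adjusted p = 0.00524) and DNAJC3 (-0.12 ± 0.030, adjusted p = 0.00438) were lower with AML874. DERL3 (0.39 ± 0.062, adjusted p = 1.64e-05) and SEC61B (0.12 ± 0.029, adjusted p = 0.00192) were higher. Where no difference was called, the interval bounds it, without adjustment for the number of genes. For EIF2AK3 the 95% interval was -0.12 to 0.060 at 8 h and -0.20 to -0.022 at 24 h, for SSR2 -0.079 to 0.075 and -0.068 to 0.086, and for P4HB 0.017 to 0.17 and -0.11 to 0.047. Further genes higher with AML874 at 8 h were DNAJB11 (0.13 ± 0.036), PDIA4 (0.21 ± 0.026), PDIA6 (0.17 ± 0.024), PDIA3 (0.10 ± 0.023), EDEM1 (0.14 ± 0.033), DNAJC3 (0.10 ± 0.030), SEL1L (0.10 ± 0.028) and DERL3 (0.17 ± 0.065). Among these, calls were lost for DNAJC3 without AML874 replicate 1 or SEL120-34A replicate 3 (adjusted p = 0.0548 to 0.135), SEL1L without AML874 replicate 1 or SEL120-34A replicate 1 or 3 (adjusted p = 0.0579 to 0.0847), and DERL3 in 12 alternatives, among them those without AML874 replicate 1 or 3 or SEL120-34A replicate 1 or 2 or 3 (adjusted p = 0.0514 to 0.310).

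**Figure D4:**
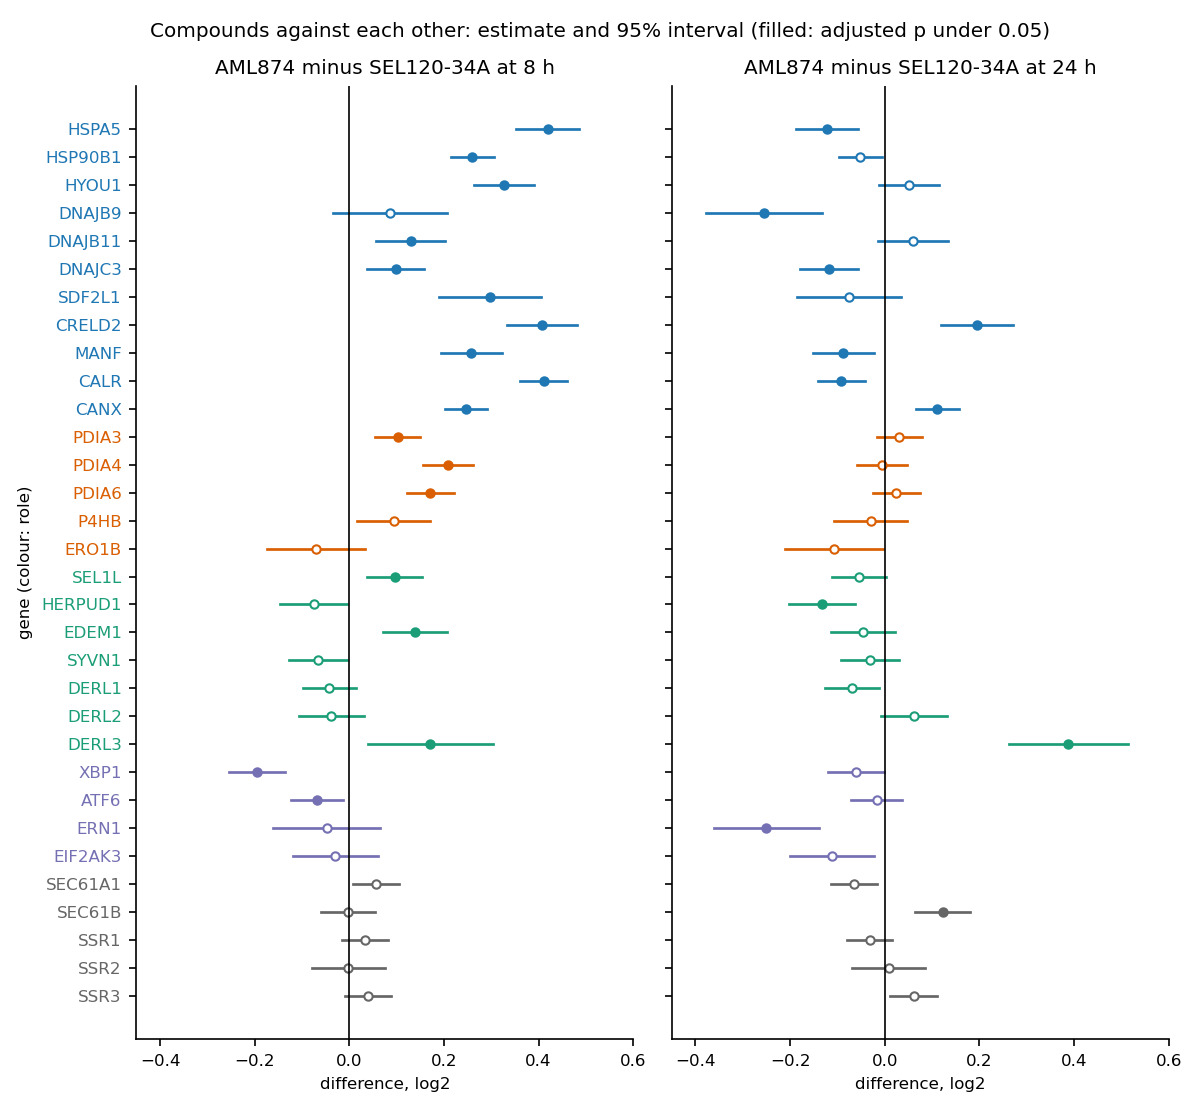
Difference of each of the 32 ER genes between AML874 and SEL120-34A at 8 h (left) and 24 h (right), as log2 with its 95% interval, filled where the adjusted p was under 0.05 and coloured by role. At 8 h all 11 chaperones and cofactors lie right of 0, up to 0.42 for HSPA5, and at 24 h they lie on both sides, with DERL3 at 0.39.

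Whether the compound effects changed with time was tested as the effect at 24 h minus the effect at 8 h. For AML874, 3 genes had a higher and 10 a lower effect at 24 h (all genes: 11.1% and 12.5%, genes of at least 5 CPM: 16.5% and 20.3%). Among the 10 were HSPA5, MANF, SDF2L1, ERO1B (-0.29 ± 0.072), HYOU1, DNAJB11 (-0.27 ± 0.051), HSP90B1 (-0.23 ± 0.032), PDIA4 (-0.17 ± 0.036), DNAJC3 (-0.17 ± 0.042) and SSR1 (-0.13 ± 0.033). DERL3, CALR and SEC61B (0.11 ± 0.040) had a higher effect. For SEL120-34A, 5 had a higher and 3 a lower effect at 24 h (all genes: 14.2% and 13.0%, genes of at least 5 CPM: 23.2% and 17.7%). CALR, DNAJB9, CRELD2 (0.24 ± 0.053), EDEM1 (0.13 ± 0.047) and CANX (0.088 ± 0.031) had the higher effect, and ERO1B (-0.26 ± 0.072), DNAJB11 (-0.20 ± 0.051) and MANF (-0.15 ± 0.045) the lower one. Library totals alone gave 2 higher and 17 lower for AML874, and 2 higher and 8 lower for SEL120-34A, and median-of-ratios size factors gave 3 higher and 4 lower for SEL120-34A. The 5 higher effects of SEL120-34A became 9 without the 4 libraries that stood highest on the axis, 8 without SEL120-34A at 8 h replicate 2, 8 without DMSO at 24 h replicate 1 and 3 without SEL120-34A at 8 h replicate 3. For AML874 the SEC61B call was lost without AML874 8 h replicate 1, DMSO 8 h replicate 2, AML874 24 h replicate 2 or 3 or DMSO 24 h replicate 1, or with median-of-ratios size factors, with library totals alone or with a filter of 1 count (adjusted p = 0.0506 to 0.243). For SEL120-34A calls were lost for CANX in 7 alternatives, among them those without SEL120-34A 8 h replicate 3 or SEL120-34A 24 h replicate 1 or 3 (adjusted p = 0.0551 to 0.757), EDEM1 in 12 alternatives, among them those without SEL120-34A 8 h replicate 1 or 3, DMSO 8 h replicate 3, SEL120-34A 24 h replicate 2 or DMSO 24 h replicate 2 or 3 (adjusted p = 0.0506 to 0.401), MANF without SEL120-34A 24 h replicate 2 (adjusted p = 0.0509), DNAJB11 without the 4 libraries that stood highest on the axis (adjusted p = 0.108), and DNAJB9 with library totals alone (adjusted p = 0.0520).

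With DMSO alone, 6 of the 32 genes were higher and 15 lower at 24 h than at 8 h (all genes: 19.8% and 22.7%, genes of at least 5 CPM: 25.2% and 39.5%). The median change was -0.059, against 0.0063 over all genes tested. The libraries of 8 members lay wholly above and of 16 wholly below those of 8 h (all genes: 23.8% and 26.3%). Library totals alone gave 8 higher and 12 lower. XBP1 had 452, 429 and 413 CPM at 24 h, against 326, 326 and 314 CPM at 8 h, without overlap, a rise of 0.42 ± 0.029, adjusted p = 1.52e-13. ERO1B (0.35 ± 0.051), EIF2AK3 (0.20 ± 0.043), ERN1 (0.18 ± 0.055), HERPUD1 (0.14 ± 0.035) and EDEM1 (0.14 ± 0.033) were higher too, so that 3 of the 4 sensor genes and none of the chaperones rose. CRELD2 had 19.2, 19.0 and 19.3 CPM at 24 h, against 24.7, 26.2 and 24.5 CPM at 8 h, a fall of 0.39 ± 0.037. Of the chaperones, 7 of 11 fell, among them DNAJB9 (-0.28 ± 0.059), SDF2L1 (-0.23 ± 0.053), DNAJB11 (-0.22 ± 0.036) and HYOU1 (-0.18 ± 0.031). HSPA5 was 0.022 ± 0.032, adjusted p = 0.633. In the translocon 4 of 5 fell, SEC61B by 0.37 ± 0.028 and SSR3 by 0.28 ± 0.024. These times also differ in culture length and in the HIF targets given above, whose part was not tested. Calls were lost for ERN1 without DMSO 24 h replicate 1 (adjusted p = 0.110), DNAJC3 in 14 alternatives, among them those without DMSO 8 h replicate 1 or 2 or 3 or DMSO 24 h replicate 2 or 3 (adjusted p = 0.0537 to 0.409), PDIA4 without DMSO 8 h replicate 2, or with library totals alone (adjusted p = 0.0853 to 0.0965), and DERL2 with library totals alone (adjusted p = 0.0829).

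**Figure D5:**
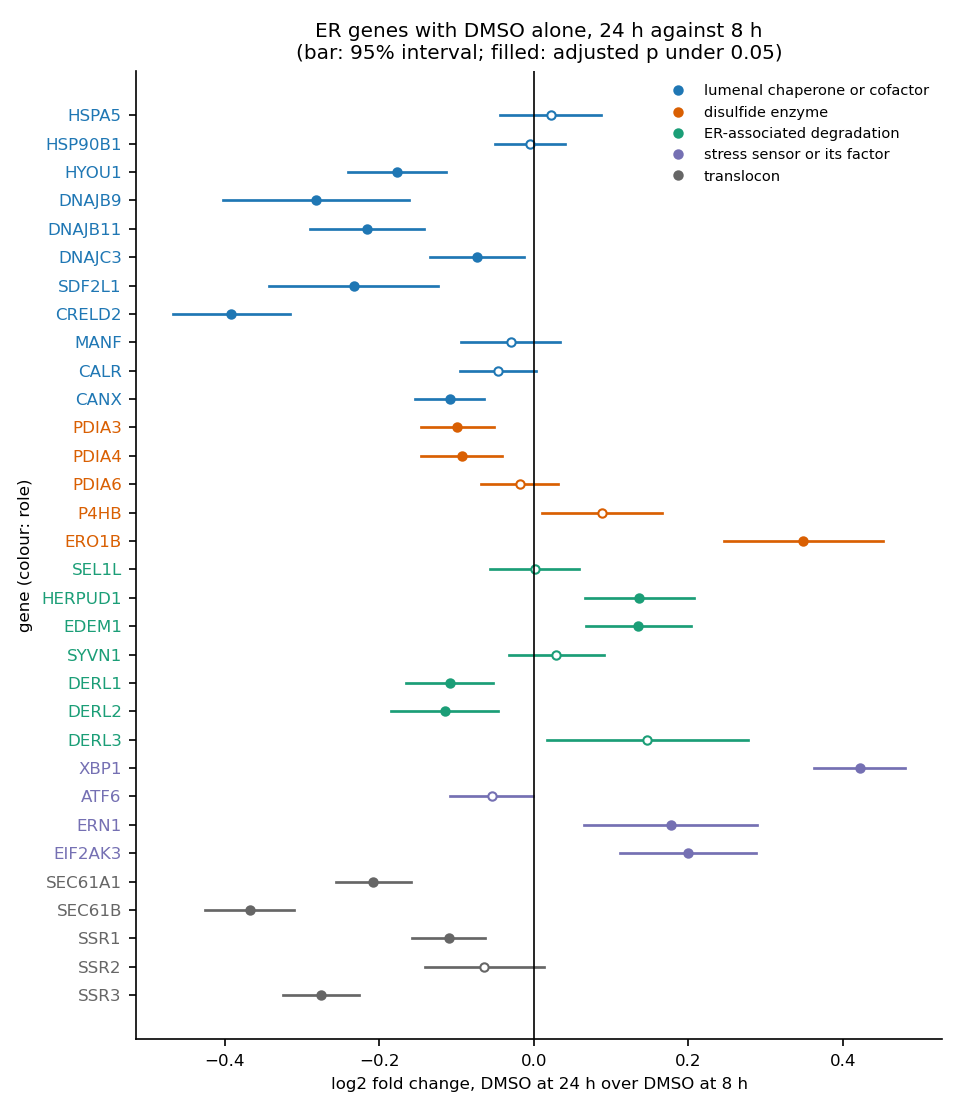
Log2 fold change of each of the 32 ER genes in DMSO at 24 h over DMSO at 8 h, with its 95% interval, filled where the adjusted p was under 0.05 and coloured by role. XBP1 lies furthest right at 0.42 and CRELD2 furthest left at -0.39, and most chaperone and translocon genes lie left of 0.

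The 8 genes that hold the ER stress response element did not share a direction. At 8 h, AML874 raised 6 and lowered 1 (XBP1), with a median of 0.15, and SEL120-34A raised 1 (XBP1) and lowered 4, with a median of -0.076. Among genes of at least 5 CPM, 23.8% rose and 32.8% fell with AML874 at 8 h, and 24.3% and 37.1% with SEL120-34A. At 24 h, AML874 raised 4 and lowered 3, from -0.36 for HSPA5 to 0.41 for CALR. At 24 h, SEL120-34A raised 3 and lowered 3, from -0.24 to 0.50 for the same genes. Of the genes of at least 5 CPM, 25.5% rose and 39.5% fell with AML874 at 24 h, and 23.2% and 29.9% with SEL120-34A. The 18 genes with a window and neither form of the element had 6 rises and 2 falls with AML874 at 8 h (median 0.024), and 5 rises and 5 falls with SEL120-34A at 8 h. These counts describe the genes, and no difference between the sets was tested.

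Further genes of the same routes were counted from 6 lists, whose median changes lay between -0.18 and 0.061 in the 4 comparisons with DMSO. Over all genes of at least 5 CPM, 23.8% rose and 32.8% fell with AML874 at 8 h, 25.5% and 39.5% at 24 h, 24.3% and 37.1% with SEL120-34A at 8 h, and 23.2% and 29.9% at 24 h, against which the counts that follow are read. Of 18 further ER folding genes, 5 rose and 7 fell with AML874 at 8 h, 5 rose and 5 fell with AML874 at 24 h, 1 rose and 10 fell with SEL120-34A at 8 h, and 5 rose and 3 fell with SEL120-34A at 24 h. PDIA5, another disulfide isomerase, rose with AML874 at 8 h (0.20 ± 0.039) and 24 h (0.29 ± 0.039), and UGGT1, the glycoprotein folding sensor, fell with SEL120-34A at 8 h (-0.34 ± 0.028). Of 16 further degradation genes, 4 rose and 8 fell with AML874 at 8 h, 2 rose and 8 fell at 24 h, 5 rose and 6 fell with SEL120-34A at 8 h, and 2 rose and 7 fell at 24 h. UBE2J1, a ubiquitin-conjugating enzyme of the ER membrane, fell in all 4, by 0.60 ± 0.030 and 0.51 ± 0.030 with AML874 (8 h and 24 h) and then by 0.31 ± 0.030 and 0.25 ± 0.030 with SEL120-34A. Of 25 further translocation and N-glycosylation genes, 4 rose and 5 fell with AML874 at 8 h, 7 and 6 at 24 h, 2 and 6 with SEL120-34A at 8 h, and 7 and 3 at 24 h. STT3B, a catalytic subunit of the oligosaccharyltransferase, rose at 24 h with AML874 (0.23 ± 0.023) and SEL120-34A (0.29 ± 0.023). With DMSO alone, 1 of these 25 rose and 21 fell at 24 h, which is 4% and 84%, against 25.2% and 39.5% of all genes of at least 5 CPM.

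The same shares stand behind the remaining lists. Of 12 genes of the PERK and ATF4 arm, 2 rose and 2 fell with AML874 at 8 h, 1 rose and 5 fell at 24 h, 2 rose and 5 fell with SEL120-34A at 8 h, and none rose and 6 fell at 24 h. The 1 gene that rose with AML874 at 24 h was under 5 CPM in both groups and is not named. Changes of the 12 genes in that comparison ran from -0.86 to 6.72. TRIB3, a target of ATF4 and CHOP, fell at 24 h with AML874 (-0.45 ± 0.039) and SEL120-34A (-0.34 ± 0.039), as did CEBPB, a transcription factor that pairs with CHOP (-0.50 ± 0.043 and -0.35 ± 0.042). At 8 h SESN2 rose with AML874 (0.21 ± 0.046) and SEL120-34A (0.21 ± 0.046), while PPP1R15A fell (-0.52 ± 0.093 and -0.28 ± 0.093). Of 11 further sensors and processing genes, 1 rose and 1 fell with AML874 at 8 h, 3 rose and 5 fell at 24 h, 5 rose and 3 fell with SEL120-34A at 8 h, and 3 rose and 3 fell at 24 h. MBTPS1, the first of the proteases that cut ATF6, fell with AML874 at 8 h (-0.39 ± 0.024) and 24 h (-0.20 ± 0.023) and with SEL120-34A at 8 h (-0.31 ± 0.024). CREB3L4, a relative of ATF6, rose at 24 h with AML874 (0.42 ± 0.051) and SEL120-34A (0.48 ± 0.051). Of 12 genes of traffic to the Golgi, 5 rose and 1 fell with AML874 at 8 h, 4 and 4 at 24 h, 3 and 4 with SEL120-34A at 8 h, and 3 and 1 at 24 h. Of the 20 HIF targets none rose, and 8 fell with AML874 at each time and 6 with SEL120-34A at each time. WFS1 and KDELR3 of these lists did not pass the filter.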

How the data were processed

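RNA of 18 OCI-AML1 libraries was measured by sequencing polyadenylated RNA. Per the submitters' processing notes, reads were aligned to GRCh38 with STAR 2.7.1a and quantified with RSEM 1.3.2. The annotation release is not given in the sources used here. The files deposited by the authors hold, for each library, raw read counts per gene in unstranded and stranded columns. The fourth column, for reads of the reverse strand, was the main input. The authors' RSEM files also hold expected counts, which were rounded to whole numbers for an alternative, and TPM. The TPM were used for levels between genes and, beside CPM, for sums of the chaperones. Rows of unmapped, multimapped, unassigned and ambiguous reads were left out of library sizes and tests.

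Counts were fitted with edgeR 4.0.16 in R 4.3.3, with TMM scaling, filterByExpr and a robust quasi-likelihood model of the 6 groups with 12 residual degrees of freedom. The filter kept 20920 genes and removed 0.0163% of counts. Each comparison, including the differences between times, was a contrast of this model, with Benjamini-Hochberg adjustment over all genes tested and 0.05 as the threshold. Replicates of a group differed beyond counting noise, with a chi-square per gene of 3.10 to 12.4 against an expected 1. On counts simulated for AML874 against DMSO at 24 h with 20031 genes, 66% of genes planted at 1.25-fold, 98% at 1.5-fold and 100% at 2-fold and 4-fold were recovered, with 9 false calls among 19831 unchanged genes. The simulation planted 50 genes at each size and drew each gene independently. In the data 4833 genes rose and 4966 fell, and 1 axis held 35.1% of the variance within groups. These rates therefore need not hold for the data.

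The fit was repeated with DESeq2 1.42.0, with limma-voom (limma 3.58.1), with scaling by library totals alone or by median-of-ratios size factors, and with a lower filter (1 count) or a higher one (1 CPM in 3 libraries). It was also repeated with a replicate block, on only the groups compared, on unstranded counts, on RSEM's expected counts and without each library in turn. Leaving out the 4 libraries that stood highest on the axis was chosen after seeing the data. All 32 members are reported. From each further list, the genes named are among the at most 2 called each way, in each comparison of a compound with DMSO, that had the largest changes and at least 5 CPM. The members and lists were chosen with earlier results of these data known. Sequences are from RefSeq windows (GRCh38.p14), which covered 29 of 32 members, with PDIA3, DERL1 and DERL3 without one. Figures were drawn with matplotlib 3.10.9.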

Additional observations from a re-analysis of the deposited data

Results flagged for a closer look

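The effect of a compound against DMSO differed between 24 h and 8 h in 21 cases, in the test of that difference itself (edgeR quasi-likelihood, Benjamini-Hochberg adjusted over all genes tested, log2 effect at 24 h minus that at 8 h). For AML874, 9.4% of the 32 genes had a higher and 31.3% a lower effect at 24 h, against 16.5% and 20.3% of genes of at least 5 CPM. For SEL120-34A these shares were 15.6% and 9.4%, against 23.2% and 17.7%.

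For AML874, the effect was lower at 24 h in HSPA5 (-0.50 ± 0.045, adjusted p = 3.32e-09), MANF (-0.49 ± 0.045, adjusted p = 1.82e-10), SDF2L1 (-0.38 ± 0.074, adjusted p = 0.000631), ERO1B (-0.29 ± 0.072, adjusted p = 0.00250) and HYOU1 (-0.28 ± 0.044, adjusted p = 1.31e-05). It was also lower in DNAJB11 (-0.27 ± 0.051, adjusted p = 0.000151), HSP90B1 (-0.23 ± 0.032, adjusted p = 6.78e-07), PDIA4 (-0.17 ± 0.036, adjusted p = 0.000452), DNAJC3 (-0.17 ± 0.042, adjusted p = 0.00238) and SSR1 (-0.13 ± 0.033, adjusted p = 0.00392). The effect was higher at 24 h in DERL3 (0.38 ± 0.089, adjusted p = 0.00135), CALR (0.14 ± 0.034, adjusted p = 0.00271) and SEC61B (0.11 ± 0.040, adjusted p = 0.0349). HSPA5, MANF and HSP90B1 rose at 8 h and fell at 24 h. The SEC61B call was lost in 8 alternatives.

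For SEL120-34A, the effect was higher at 24 h in CALR (0.64 ± 0.034, adjusted p = 6.07e-16), DNAJB9 (0.29 ± 0.084, adjusted p = 0.00842), CRELD2 (0.24 ± 0.053, adjusted p = 0.000708), EDEM1 (0.13 ± 0.047, adjusted p = 0.0366) and CANX (0.088 ± 0.031, adjusted p = 0.0319). It was lower in ERO1B (-0.26 ± 0.072, adjusted p = 0.00681), DNAJB11 (-0.20 ± 0.051, adjusted p = 0.00366) and MANF (-0.15 ± 0.045, adjusted p = 0.0122). CALR fell at 8 h and rose at 24 h. The DMSO groups of both times enter each of these values, and CALR, DNAJB11, MANF and ERO1B appear for both compounds. For SEL120-34A the EDEM1 call was lost in 12 alternatives and the CANX call in 7. The calls of DNAJB9, DNAJB11 and MANF for SEL120-34A were each lost in 1.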

How the results depend on the processing

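Of 5280 values of the 32 genes under an alternative, 4759 kept their sign and side of the threshold, 193 lost the call with the same sign, 144 gained one with the same sign, 181 turned sign without a call in either fit and 3 turned sign and gained a call. The 3 were changes with SEL120-34A at 8 h, where library totals alone gave 0.051 for CANX, 0.062 for PDIA6 and 0.060 for SEC61A1, all called. Median-of-ratios size factors moved the median of all genes by -0.013 to 0.013 and library totals alone by -0.073 to 0.066, sizes that some called changes of members do not exceed. With library totals alone, SEL120-34A at 8 h gave 17 higher and 6 lower, AML874 at 8 h 1 lower, AML874 against SEL120-34A at 8 h 4 lower, the AML874 time difference 17 lower, and the SEL120-34A time difference 2 higher and 8 lower. That last count of higher effects was 3 with median-of-ratios size factors, 3 with only the groups compared and 9 without the 4 libraries that stood highest on the axis, which also gave 4 higher with SEL120-34A at 8 h. Unstranded counts gave 2 lower with AML874 at 8 h and 1 lower between the compounds at 8 h, where a filter of 1 count gave 1 and a filter of 1 CPM gave 4. The causes were not tested. Leaving out 1 library gave 5 to 7 higher with SEL120-34A at 8 h, 2 to 8 higher and 2 to 7 lower with SEL120-34A at 24 h, 1 to 2 lower between the compounds at 8 h and 4 to 8 at 24 h, and 3 to 8 higher effects for SEL120-34A. No sign of pairing by replicate number was seen, which does not exclude it. Same-numbered libraries correlated at -0.0276 on average, 10 of 45 above 0.1, and 5 of 18 libraries correlated best with their own number. With a replicate block, 1 gene instead of 2 was lower with AML874 than with SEL120-34A at 8 h. Most members' changes were of the smallest size simulated or below it, where recovery in the simulation was incomplete. DESeq2, limma-voom and RSEM expected counts left every count of members within 1.5 times the value in the report.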
